A study of Mus musculus with 18 samples.

Results

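The genes described here are 10 that mark dendritic cells or act in them: Xcr1, Clec9a, Batf3, Flt3, Zbtb46, Itgax, Cd209a, Ccr7, Fscn1 and Cd83. They were taken by name from the 57010 gene IDs of each deposited count table, and all 10 had a single matching ID. Total RNA of uterus and ovary was sequenced from C57B6/J mice aged 20 to 25 weeks that were homozygous (ARE-/-), heterozygous (ARE+/-) or wild type (WT), with 3 libraries for each of the 3 genotypes in each of the 2 tissues. The series' title concerns implantation failure, luteinization and CD8+ T cells in hypophysitis induced by interferon gamma. As background, ARE names the AU-rich element of the Ifng transcript, whose deletion makes that transcript longer-lived. No label spells the name out. Neither the cycle stage nor the link between uteri and ovaries of one animal was stated in the sources used. The titles of uterus WT replicate 1 and ovary ARE-/- replicate 6 carry the word backup, whose meaning was not stated either.

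Dendritic cells take up antigen in tissues and present it to T cells. Type 1 conventional dendritic cells depend on the transcription factors BATF3 and IRF8, take up dead cells through CLEC9A and carry XCR1, the receptor for the chemokine XCL1 that natural killer cells and CD8+ T cells release. Type 2 conventional dendritic cells present mainly to CD4+ T cells. FLT3 and its ligand sustain both kinds, and a dendritic cell that matures gains CCR7 and moves along CCL19 and CCL21 to lymph nodes. In the uterus, dendritic cells are known for their part in the decidua that forms at implantation.

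Ifng had 56 to 130 counts in ARE-/- uterus, 36 to 70 in ARE+/- uterus and 0 to 6 in WT uterus, and 38 to 51 counts in ARE-/- ovary, 10 to 28 in ARE+/- ovary and 0 to 4 in WT ovary. It separated both mutant genotypes from WT in each tissue and the mutant genotypes from each other only in the ovary. Libraries held 33185496 to 49720354 counts, so 3 counts equalled 0.0603 to 0.0904 CPM (counts divided by the library's total, scaled by TMM within a tissue). Uterus ARE-/- replicate 1 stood apart. Its 9 adipocyte markers summed to 17040 CPM, against 1046 and 1820 CPM in the other ARE-/- uteri and 69.0 to 88.4 CPM in WT uteri, and its 6 erythroid markers to 7267 CPM, against 838.7 and 1299 CPM in the other ARE-/- uteri and 96.0 to 219.5 CPM in WT uteri. Ovarian marker genes summed to 280.8 CPM in that uterus and to at most 117.7 CPM in the other 8 uteri. The rise of fat and blood markers was not confined to that library. In ARE-/- uterus 9 of 9 adipocyte and 5 of 6 erythroid genes rose. Their sums in ARE+/- uteri were 342.1 to 559.3 CPM and 119.0 to 223.0 CPM, with none of these genes called. Ovaries differed in makeup too. Their ovarian markers summed to 3382, 1911 and 7489 CPM in ARE-/- replicates 2, 3 and 6 against 7067 to 10610 CPM in WT, and their adipocyte markers to 1486, 2223 and 127.2 CPM against 180.9 to 257.3 CPM in WT, with none of the genes of either list called. Oviduct markers summed to 3213 to 3706 CPM in ARE-/- ovary, 2708 to 3350 CPM in ARE+/- ovary and 1552 to 2139 CPM in WT ovary, and 4 of 5 rose in ARE-/- ovary. The part of these tissues in the uterus and ovary results was not tested. Of the markers of other leukocytes, 10 of 14 macrophage and monocyte genes, 9 of 12 T cell genes, 2 of 6 neutrophil genes, 1 of 6 natural killer cell genes and 0 of 8 B cell genes rose in ARE-/- uterus, where 1 natural killer cell gene fell. In ARE-/- ovary 10 of 14, 10 of 12, 1 of 5 tested, 5 of 6 and 1 of 8 rose, in the same order of lists, and none fell. Over all genes 3.36% rose and 0.391% fell in ARE-/- uterus, and 6.31% rose and 4.15% fell in ARE-/- ovary. In whole tissue, more cells of a type and more RNA per cell cannot be told apart.

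The promoters of the 3 type 1 dendritic cell genes are shown because these genes moved together in the uterus. Each line gives the 250 bases before the RefSeq start of the gene on its own strand, in GRCm38.p6: chr9:123862030-123862279 on the minus strand for Xcr1, chr6:129408612-129408861 on the plus strand for Clec9a and chr1:191098164-191098413 on the plus strand for Batf3. Capitals mark a match to the GAS motif TTCNNNGAA, an element of promoters that respond to interferon gamma.
Xcr1: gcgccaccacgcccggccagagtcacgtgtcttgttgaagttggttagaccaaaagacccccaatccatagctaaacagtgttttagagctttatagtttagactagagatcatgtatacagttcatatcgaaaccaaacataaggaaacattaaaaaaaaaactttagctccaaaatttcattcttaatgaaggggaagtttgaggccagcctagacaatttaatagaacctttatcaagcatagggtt
Clec9a: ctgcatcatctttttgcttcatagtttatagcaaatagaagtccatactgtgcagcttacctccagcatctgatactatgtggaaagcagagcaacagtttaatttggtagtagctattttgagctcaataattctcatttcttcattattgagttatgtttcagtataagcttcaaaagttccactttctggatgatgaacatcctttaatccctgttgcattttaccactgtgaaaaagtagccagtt
Batf3: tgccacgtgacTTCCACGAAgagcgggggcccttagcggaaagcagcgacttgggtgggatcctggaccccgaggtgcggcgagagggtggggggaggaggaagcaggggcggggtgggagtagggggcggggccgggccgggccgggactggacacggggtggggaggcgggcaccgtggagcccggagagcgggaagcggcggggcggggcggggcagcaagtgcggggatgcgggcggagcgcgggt
Among the 8 members with an entry in the RefSeq table, this motif, searched on both strands, was found only in Batf3, at 239 to 231 bases before the start. It occurred in 7.02% of 32851 promoter windows of the same length. The ISRE motif (GAAA, NN, GAAA) was in none of the 8 and in 2.98% of all windows. The AP-1 motif TGANTCA was in Itgax at 56 to 50 bases and in Zbtb46 at 61 to 55 bases before the start, and in 6.75% of all windows. Positions count from the start of the RefSeq entry, and whether Zbtb46 transcription begins there was not tested. Matches were not counted as binding, and no binding was measured in this series.

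In the ARE-/- uterus 4 of the 10 genes rose against WT: Ccr7, Xcr1, Clec9a and Batf3. None fell and 6 were not called, where a call is an adjusted p under 0.05 in edgeR's quasi-likelihood test over 24277 genes, of which 3.75% were called, 3.36% upward and 0.391% downward. In the ARE-/- ovary 3 rose, Xcr1, Ccr7 and Clec9a, and none fell, against 10.5% of 24457 genes called, 6.31% upward and 4.15% downward. In heterozygotes Batf3 alone rose in the uterus (1.14% of genes called, 1.08% upward and 0.0535% downward) and Xcr1 alone in the ovary (1.71% called, 1.35% upward and 0.356% downward). The median log2 fold change of the 10 genes was 1.11 in ARE-/- uterus and 1.38 in ARE-/- ovary, and that of all genes tested was 0.04 and 0.02. All 10 passed the filter on low counts in every fit. Genotype comparisons within a tissue share the WT libraries.

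**Figure D1:**
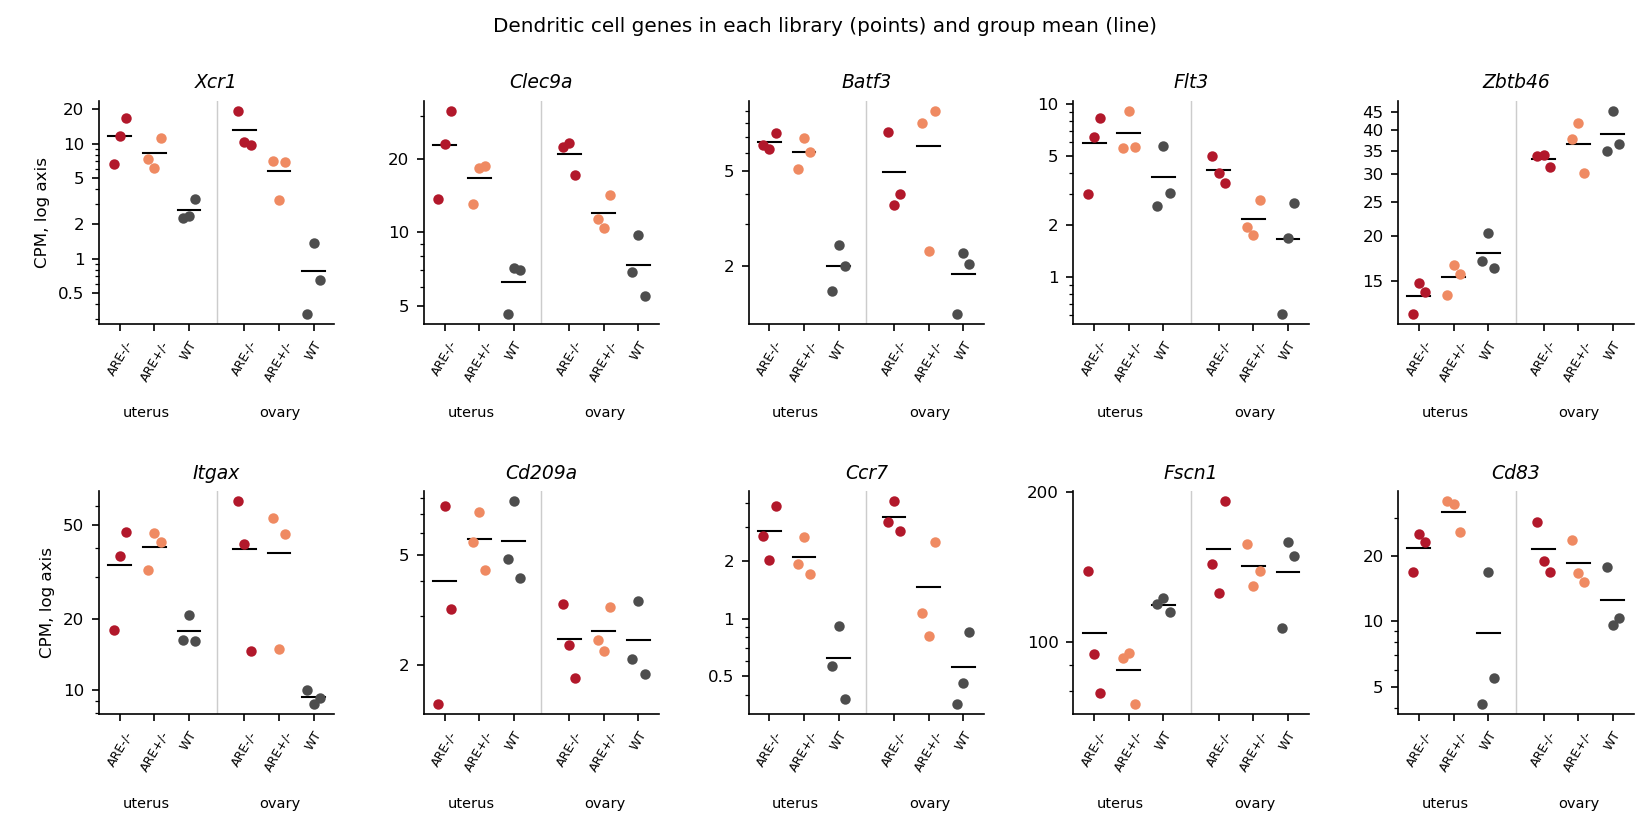
CPM on a log axis for each of the 10 genes, with 1 point per library and a line at the group mean, in uterus and ovary. Xcr1 ranged from 6.71 to 16.8 CPM in ARE-/- uterus and 2.25 to 3.33 CPM in WT uterus, and from 9.71 to 19.3 CPM in ARE-/- ovary and 0.332 to 1.37 CPM in WT ovary, while the points of Cd209a overlapped between genotypes in each tissue.

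Xcr1 (ENSMUSG00000060509, chromosome 9, 123681380 to 123691094, minus strand in the GENCODE M32 annotation of the files) encodes the XCL1 receptor. In the ovary it had 19.3, 10.4 and 9.71 CPM in ARE-/- replicates 2, 3 and 6, 7.05, 3.24 and 6.92 CPM in ARE+/- replicates 1, 2 and 4, and 0.332, 1.37 and 0.652 CPM in WT replicates 1, 2 and 3. All ARE-/- ovaries lay above all ARE+/- ovaries, and these above all WT ovaries. Against WT, Xcr1 rose by a log2 fold change of 4.05 ± 0.55 in ARE-/- ovary (SE, edgeR adjusted p = 0.00349) and by 2.86 ± 0.53 in ARE+/- ovary (edgeR adjusted p = 0.04). The step of ARE-/- over ARE+/- was 1.19 ± 0.48 and was not called (edgeR adjusted p = 0.581). The raw counts behind it were 768, 408 and 392 in ARE-/- ovaries, 270, 152 and 270 in ARE+/- ovaries and 13, 54 and 26 in WT ovaries. The ARE+/- call ended without any 1 of 5 libraries (ARE+/- replicates 1 or 4, WT replicates 1 or 3, or ARE-/- replicate 3), at edgeR adjusted p of 0.056 to 0.16, and with no filter on low counts (edgeR adjusted p = 0.068).

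In the uterus Xcr1 stood at 6.71, 11.8 and 16.8 CPM in ARE-/- replicates 1, 2 and 3, at 7.38, 6.18 and 11.2 CPM in ARE+/- uteri and at 2.25, 2.35 and 3.33 CPM in WT uteri. Both mutant genotypes lay above WT, and they overlapped each other. Xcr1 rose in ARE-/- uterus by 2.15 ± 0.39 (edgeR adjusted p = 0.0168), while the ARE+/- value of 1.64 ± 0.38 was not called (edgeR adjusted p = 0.08). The ARE-/- library with the high adipocyte markers was the lowest of its group. An unnamed gene on the opposite strand, ENSMUSG00000120808, shares 1071 of the 4453 exon bases of Xcr1 (24.1%), and counting without strand gives reads of the shared stretch to both. That gene had 37, 69 and 78 counts in ARE-/- uteri and 21, 19 and 34 in WT uteri, and 50, 43 and 31 counts in ARE-/- ovaries and 41, 32 and 20 in WT ovaries. In ARE-/- libraries of both tissues and in WT uteri it was below the Xcr1 count. In WT ovary replicate 1 its 41 counts exceeded the 13 of Xcr1, so the lowest Xcr1 levels may hold reads of either gene. None of the other 9 members shares an exon base with another annotated gene.

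Clec9a (chromosome 6, 129385825 to 129401726, plus strand) encodes the receptor for the actin filaments that dead cells expose. Uterus levels were 13.7, 23.1 and 31.4 CPM in ARE-/-, 13.1, 18.4 and 18.7 CPM in ARE+/- and 4.66, 7.14 and 7.02 CPM in WT. Ovary levels were 22.4, 23.2 and 17.2 CPM in ARE-/-, 11.3, 10.4 and 14.3 CPM in ARE+/- and 6.87, 9.80 and 5.49 CPM in WT. Every mutant library of each tissue exceeded every WT library, and in the ovary the homozygotes also exceeded the heterozygotes. The rise in ARE-/- was 1.85 ± 0.33 in the uterus (edgeR adjusted p = 0.0154) and 1.503 ± 0.229 in the ovary (edgeR adjusted p = 0.00427). In ARE+/- it was 1.41 ± 0.32 in the uterus and 0.70 ± 0.23 in the ovary, neither of them called (edgeR adjusted p = 0.0772 and 0.168).

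Batf3 (chromosome 1, 190830522 to 190841140, plus strand), the transcription factor that type 1 dendritic cells require, had 6.44, 6.19 and 7.24 CPM in ARE-/- uterus, 5.13, 6.95 and 6.04 CPM in ARE+/- uterus and 1.55, 2.43 and 2.00 CPM in WT uterus. Both mutant groups cleared WT and overlapped each other. Batf3 rose by 1.73 ± 0.28 in ARE-/- uterus (edgeR adjusted p = 0.0103) and by 1.59 ± 0.28 in ARE+/- uterus (edgeR adjusted p = 0.0307). The ARE+/- call ended without any of the 3 ARE+/- libraries or WT replicates 1 or 3 (edgeR adjusted p of 0.0759 to 0.191). In the ovary the libraries spread more, with 7.35, 3.61 and 4.01 CPM in ARE-/-, 7.97, 2.30 and 9.0 CPM in ARE+/- and 1.25, 2.27 and 2.03 CPM in WT. ARE+/- replicate 2 lay just above the WT range, and neither ovary value was called (1.43 ± 0.50 in ARE-/-, edgeR adjusted p = 0.104, and 1.79 ± 0.50 in ARE+/-, edgeR adjusted p = 0.12). Without that library the ovary calls changed, with Batf3 higher in ARE-/- by 1.41 (edgeR adjusted p = 0.0349) and in ARE+/- by 2.18 (edgeR adjusted p = 0.0226).

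All 4 uterus calls ended, with Xcr1 at edgeR adjusted p = 0.108 and 0.0679, Clec9a at 0.0953 and 0.0747, Batf3 at 0.0751 and 0.0711 and Ccr7 at 0.149 and 0.142, without WT replicate 1 or WT replicate 3. The fit of the 2 genotypes alone called none of them either, and without either WT library the log2 fold changes of the 4 genes lay between 1.57 and 2.35. Calls over all genes fell too, from 911 to 203 without WT replicate 1 and 192 without WT replicate 3. The fit of the 2 genotypes alone called 374 genes. Without WT replicate 2, in contrast, 5 members and 1268 genes were called. Counts of WT replicate 2 differed from those of WT replicates 3 and 1 by 160.4 and 175.8 times the sampling variance. Between WT replicates 1 and 3 the same measure was 34.5. The part of WT replicate 2 in the spread and in these calls was not tested. Without ARE-/- replicate 1 the ARE-/- uterus count was 5, the fifth gene being Itgax, and the ARE+/- uterus count was 4. Over all genes the same fit called 1103 and 733, against 911 and 276 with that library.

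**Figure D2:**
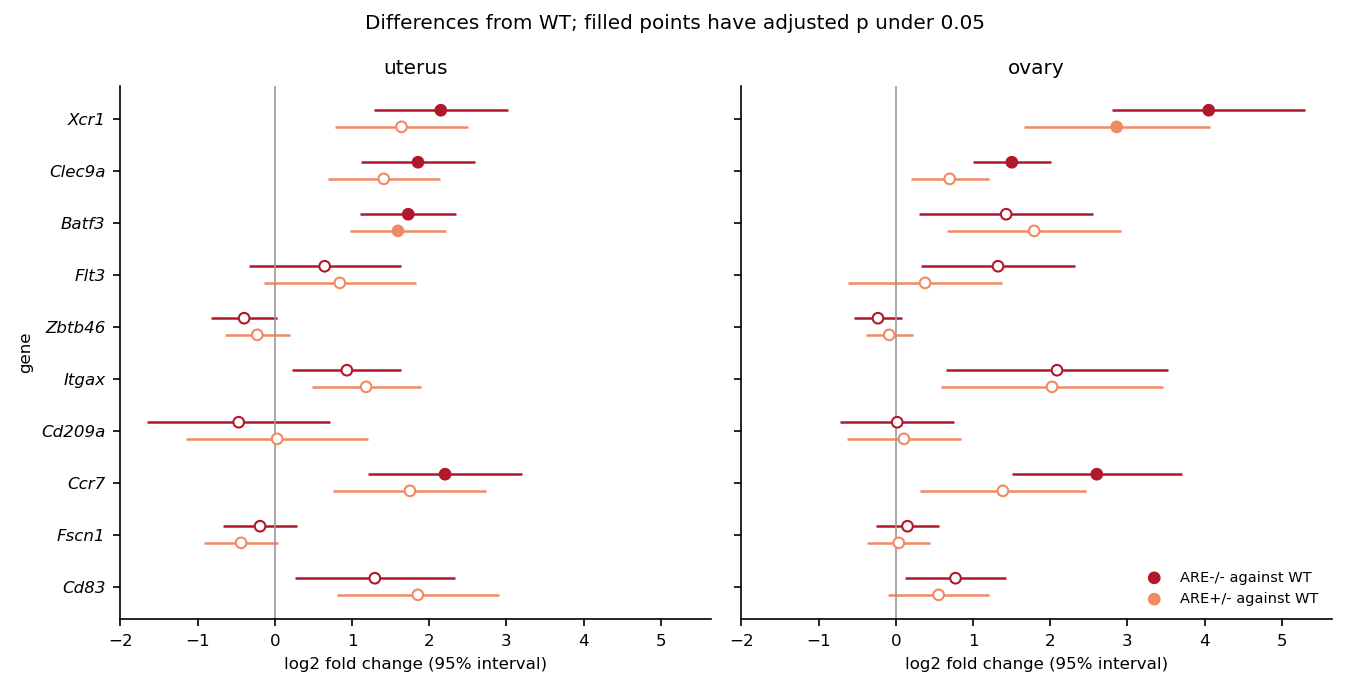
Log2 fold change against WT with its 95% interval for each gene (rows), for ARE-/- and ARE+/- in uterus and ovary; filled points have an edgeR adjusted p under 0.05. The highest point is Xcr1 in ARE-/- ovary at 4.05 and the points of Zbtb46, Cd209a and Fscn1 lie near 0.

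Flt3 (chromosome 5, 147267551 to 147337299, minus strand) encodes the growth factor receptor that dendritic cell precursors need. It had 3.02, 6.41 and 8.29 CPM in ARE-/- uterus, 5.56, 9.10 and 5.65 CPM in ARE+/- uterus and 2.57, 5.67 and 3.07 CPM in WT uterus, with all groups overlapping WT (0.65 ± 0.44 for ARE-/-, edgeR adjusted p = 0.461). In the ovary it had 4.97, 3.96 and 3.49 CPM in ARE-/-, 1.93, 1.75 and 2.77 CPM in ARE+/- and 0.613, 1.68 and 2.66 CPM in WT. The ARE-/- ovaries exceeded all others, at 1.32 ± 0.45 over WT, which was not called (edgeR adjusted p = 0.0912).

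Zbtb46 (chromosome 2, 181029555 to 181101219, minus strand) encodes a transcription factor of conventional dendritic cells that endothelial cells also carry. It was at 12.1, 14.8 and 13.97 CPM in ARE-/- uterus, 13.7, 16.7 and 15.6 CPM in ARE+/- uterus and 17.0, 20.5 and 16.3 CPM in WT uterus. Ovaries had 33.9, 33.96 and 31.5 CPM in ARE-/-, 37.8, 41.8 and 30.3 CPM in ARE+/- and 34.8, 45.3 and 36.5 CPM in WT. The ARE-/- libraries lay below all WT libraries in both tissues, yet the values were small and not called (-0.40 ± 0.19, edgeR adjusted p = 0.283 in uterus, and -0.23 ± 0.14, edgeR adjusted p = 0.325 in ovary). The 95% intervals reached from -0.82 to 0.03 in uterus and from -0.54 to 0.08 in ovary.

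Itgax (chromosome 7, 127728719 to 127749829, plus strand) encodes CD11c, an integrin chain found on dendritic cells and many macrophages. Uteri held 18.0, 37.0 and 46.7 CPM in ARE-/-, 32.3, 46.2 and 42.3 CPM in ARE+/- and 16.3, 20.8 and 16.1 CPM in WT. Ovaries held 62.9, 41.4 and 14.6 CPM in ARE-/-, 53.3, 14.97 and 45.5 CPM in ARE+/- and 9.99, 8.73 and 9.23 CPM in WT. ARE-/- replicate 6 and ARE+/- replicate 2 were the low ovaries of their groups, and those libraries were also the lowest of their groups for the summed macrophage and monocyte markers, at 1049 and 955.4 CPM. The difference was 0.93 ± 0.32 in ARE-/- uterus and 2.09 ± 0.61 in ARE-/- ovary, neither called (edgeR adjusted p = 0.142 and 0.0761). It was called without uterus ARE-/- replicate 1 (1.23, edgeR adjusted p = 0.0103) and without ovary ARE-/- replicate 6 (2.47, edgeR adjusted p = 0.0272) or ovary ARE+/- replicate 2 (2.07, edgeR adjusted p = 0.0468). The part of other cell types in these values was not tested.

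Cd209a (chromosome 8, 3793397 to 3798984, minus strand), a lectin of type 2 and monocyte-derived dendritic cells in the mouse, was called in neither tissue. It measured 1.44, 7.47 and 3.17 CPM in ARE-/- uterus, 5.56, 7.13 and 4.41 CPM in ARE+/- uterus and 4.82, 7.81 and 4.12 CPM in WT uterus. In the ovary it measured 3.31, 2.36 and 1.78 CPM in ARE-/-, 2.46, 2.24 and 3.23 CPM in ARE+/- and 2.10, 3.41 and 1.86 CPM in WT. The groups overlapped throughout, at -0.47 ± 0.53 in ARE-/- uterus and 0.02 ± 0.33 in ARE-/- ovary (edgeR adjusted p = 0.678 and 0.978). The ovary interval, -0.72 to 0.75, excludes a change of the size of Clec9a there, while the uterus interval, -1.66 to 0.72, is wider.

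Ccr7 (chromosome 11, 99035022 to 99045903, minus strand) encodes the receptor that guides mature dendritic cells, and also naive T cells, to lymph nodes. Its levels were low, at 2.72, 2.03 and 3.89 CPM in ARE-/- uterus, 1.93, 2.66 and 1.71 CPM in ARE+/- uterus and 0.563, 0.917 and 0.381 CPM in WT uterus. Ovaries had 3.21, 4.11 and 2.87 CPM in ARE-/-, 1.07, 0.811 and 2.51 CPM in ARE+/- and 0.358, 0.458 and 0.853 CPM in WT. In both tissues ARE-/- exceeded WT in every library, and Ccr7 rose by 2.21 ± 0.45 in uterus (edgeR adjusted p = 0.0276) and 2.60 ± 0.49 in ovary (edgeR adjusted p = 0.0109). The ovary call ended without WT replicate 1 (2.34, edgeR adjusted p = 0.0578), and the uterus call ended in 7 of 15 alternatives. The ARE+/- values, 1.75 ± 0.44 in uterus and 1.39 ± 0.48 in ovary, were not called (edgeR adjusted p = 0.101 and 0.198). T cell markers summed to 124.1 to 169.0 CPM in ARE-/- uterus against 34.7 to 68.9 CPM in WT uterus, and to 60.9 to 136.4 CPM in ARE-/- ovary against 24.2 to 27.7 CPM in WT ovary. Their part in the Ccr7 values was not tested.

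Fscn1 (chromosome 5, 142946098 to 142958940, plus strand) encodes fascin, an actin bundler of mature dendritic cells that other cells of a tissue also make. It was the most abundant of the 10 genes by RPKM (CPM per kilobase of exon), at 38.9 RPKM in ARE-/- uterus against 44.5 RPKM in WT uterus and 57.4 RPKM in ARE-/- ovary against 51.6 RPKM in WT ovary. Neither difference was called (-0.19 ± 0.21, edgeR adjusted p = 0.669, and 0.15 ± 0.18, edgeR adjusted p = 0.651). Levels were 138.7, 94.8 and 79.1 CPM in ARE-/- uterus, 93.2, 95.1 and 75.3 CPM in ARE+/- uterus and 119.2, 122.5 and 115.2 CPM in WT uterus. The ARE+/- uteri were below all WT uteri, while ARE-/- replicate 1 was above them.

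Cd83 (chromosome 13, 43938251 to 43956608, plus strand) encodes a surface protein of mature dendritic cells and activated B cells. Uteri had 16.8, 25.3 and 23.1 CPM in ARE-/-, 35.7, 34.6 and 25.7 CPM in ARE+/- and 4.18, 16.9 and 5.47 CPM in WT. WT replicate 2 reached the ARE-/- range, and the heterozygotes were above the homozygotes in every library. Ovaries had 28.7, 18.9 and 16.8 CPM in ARE-/-, 23.6, 16.7 and 15.1 CPM in ARE+/- and 17.7, 9.62 and 10.3 CPM in WT. No call was made, at 1.30 ± 0.46 and 1.85 ± 0.47 in ARE-/- and ARE+/- uterus (edgeR adjusted p = 0.161 and 0.101) and 0.77 ± 0.29 in ARE-/- ovary (edgeR adjusted p = 0.125). Without uterus WT replicate 2 both uterus values were called, at 2.17 in ARE-/- (edgeR adjusted p = 0.00659) and 2.73 in ARE+/- (edgeR adjusted p = 0.00876). That library also had the highest summed T cell markers of the WT uteri, 68.9 CPM against 34.7 and 36.2 CPM. With replicate number as a block, the ARE-/- ovary value was called (1.196, edgeR adjusted p = 0.0249).

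Between homozygotes and heterozygotes no call was made for the 10 genes. In the uterus none was called by edgeR and none had an unadjusted p under 0.05, against 0% of all genes called. In the ovary none was called by edgeR, against 0.0491% of all genes, and 3 had an unadjusted p under 0.05: Clec9a (0.80 ± 0.22), Ccr7 (1.22 ± 0.46) and Xcr1 (1.19 ± 0.48). The share of all genes with an unadjusted p under 0.05 was not counted in either tissue, so neither count of members is read as a result. DESeq2 called 0 in the uterus and 0 in the ovary, against 188 and 197 of all genes.

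Per length, Xcr1 was the scarcest of the 10 transcripts in WT ovary, at 0.177 RPKM against 0.281 for Ccr7, 0.451 for Flt3, 1.66 for Cd209a, 2.15 for Itgax, 2.24 for Clec9a, 2.31 for Batf3, 5.07 for Cd83, 6.02 for Zbtb46 and 51.6 for Fscn1. In ARE-/- ovary it was at 2.94 RPKM, above Ccr7 (1.72), Cd209a (1.68) and Flt3 (1.13). In the uterus it was at 2.64 RPKM in ARE-/- and 0.594 RPKM in WT, where Ccr7 was lowest at 0.314 RPKM. With 1 scaling for both tissues, the order of Xcr1 was ovary ARE-/- (12.4 ± 4.97 CPM), uterus ARE-/- (12.3 ± 5.36), uterus ARE+/- (8.66 ± 2.72), ovary ARE+/- (5.47 ± 2.05), uterus WT (2.79 ± 0.63) and ovary WT (0.753 ± 0.515, SD, n = 3 each). The first pair differed by far less than its SDs.

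WT ovary and WT uterus differed in 2 genes, against 25.2% of 26682 genes called in the joint fit, 13.3% higher and 11.9% lower in WT ovary. Xcr1 was lower in WT ovary (-1.89 ± 0.49, edgeR adjusted p = 0.0102) and Zbtb46 was higher (0.97 ± 0.16, edgeR adjusted p = 0.000326). Flt3 (-1.33 ± 0.48) and Cd209a (-1.33 ± 0.48) were not called, at edgeR adjusted p of 0.0523 and 0.0518. Without ovary WT replicate 1, the library with 13 Xcr1 counts, the Xcr1 value was -1.52 and its call ended (edgeR adjusted p = 0.0506). Clec9a was not called in that comparison (0.09 ± 0.29, 95% interval -0.53 to 0.71).

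The genotype effect was then compared between tissues as an interaction. The ARE-/- effect on Xcr1 was larger in ovary than in uterus by 1.89 ± 0.67 on the log2 scale, with an unadjusted p of 0.0118 and an edgeR adjusted p of 0.229. None of the 10 genes was called, against 0.169% of all genes (0.06% higher in ovary and 0.109% lower), and 1 of them, Xcr1, had an unadjusted p under 0.05. DESeq2 called 0 of the 10, against 793 of all genes. For Clec9a the same difference was -0.36 ± 0.41 and for Batf3 -0.31 ± 0.58. The ARE+/- effect also gave no call among the 10 with edgeR, against 0.00375% of all genes. DESeq2 called 0 of them and 187 of all genes. There Cd83 alone had an unadjusted p under 0.05 (-1.29 ± 0.58, edgeR adjusted p = 0.542). Cd83 was called without uterus WT replicate 2 (-2.16, edgeR adjusted p = 0.0461), in a fit that called 81 genes in all. For both effects the share of all genes with an unadjusted p under 0.05 was not counted, so these single genes are not read as results.

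Because Xcr1 and Clec9a both serve as markers of type 1 dendritic cells, their ratio within a library was examined after their levels had been seen. Whether the same cells made both transcripts in these tissues was not measured. The mean log2 ratio of counts, Xcr1 over Clec9a, was -0.73 ± 0.48 in ARE-/- ovary, -1.13 ± 0.50 in ARE+/- ovary and -3.37 ± 0.79 in WT ovary (SD, n = 3 each). In the uterus it was -0.97 ± 0.06 in ARE-/-, -1.04 ± 0.46 in ARE+/- and -1.24 ± 0.31 in WT. Means of 5 of the 6 groups lay between -1.24 and -0.73, and WT ovary stood below them. The ARE-/- ovary exceeded WT ovary by 2.63 with no overlap of libraries, with an exact two-sided permutation p = 0.1, the smallest that 3 against 3 libraries allow, and an adjusted p of 0.176 over 88 ratio tests.

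**Figure D3:**
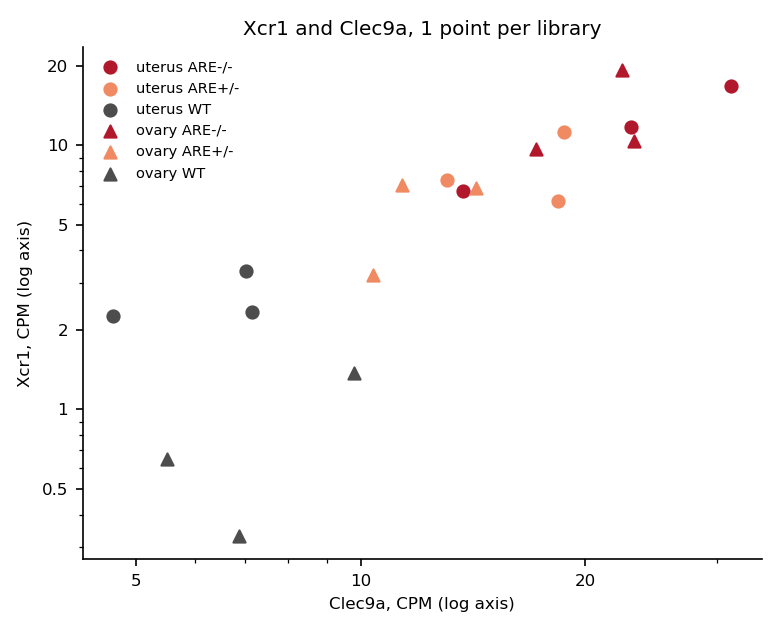
Xcr1 against Clec9a, both in CPM on log axes, with 1 point per library. The 3 WT ovaries lie below the rest, at 0.332 to 1.37 CPM of Xcr1, although their Clec9a of 5.49 to 9.80 CPM overlaps that of the WT uteri, 4.66 to 7.14 CPM.

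Ratios to Ptprc, which encodes the leukocyte surface protein CD45, set each gene against this 1 leukocyte gene. Ptprc had 43.7, 140.2 and 181.7 CPM in ARE-/- uterus and 48.5, 57.7 and 51.1 CPM in WT uterus, where it was not called (1.22 ± 0.40, edgeR adjusted p = 0.135), and 126.4, 117.0 and 51.4 CPM in ARE-/- ovary and 19.3, 22.1 and 22.1 CPM in WT ovary (2.22 ± 0.51, edgeR adjusted p = 0.035). The log2 ratio of Xcr1 to Ptprc exceeded WT by 1.08 in ARE-/- uterus and by 2.05 in ARE-/- ovary, without overlap. For Clec9a the same difference was 0.81 without overlap in uterus and -0.58 with overlap in ovary. Itgax differed by -0.15 in uterus and -0.26 in ovary, with overlap. Cd209a was below WT in all ARE-/- libraries, with differences of -1.70 in uterus and -2.09 in ovary, and Zbtb46 likewise, with -1.38 and -2.33. All these exact two-sided permutation p-values were 0.1 or higher, 0.176 or higher after adjustment, so none passed. Among 4 genes shared by leukocytes, Ptprc included, 3 were called higher in ARE-/- uterus and Ptprc was not. These 4 summed to 478.3 CPM in uterus ARE-/- replicate 1, against 227.7 to 271.4 CPM in WT uteri. The low Ptprc of uterus ARE-/- replicate 1 enters all ratios of that library. Without it the uterus differences were 0.81 for Xcr1, 0.51 for Clec9a and -0.37 for Itgax, whose other ARE-/- uteri both lay below the WT uteri.

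**Figure D4:**
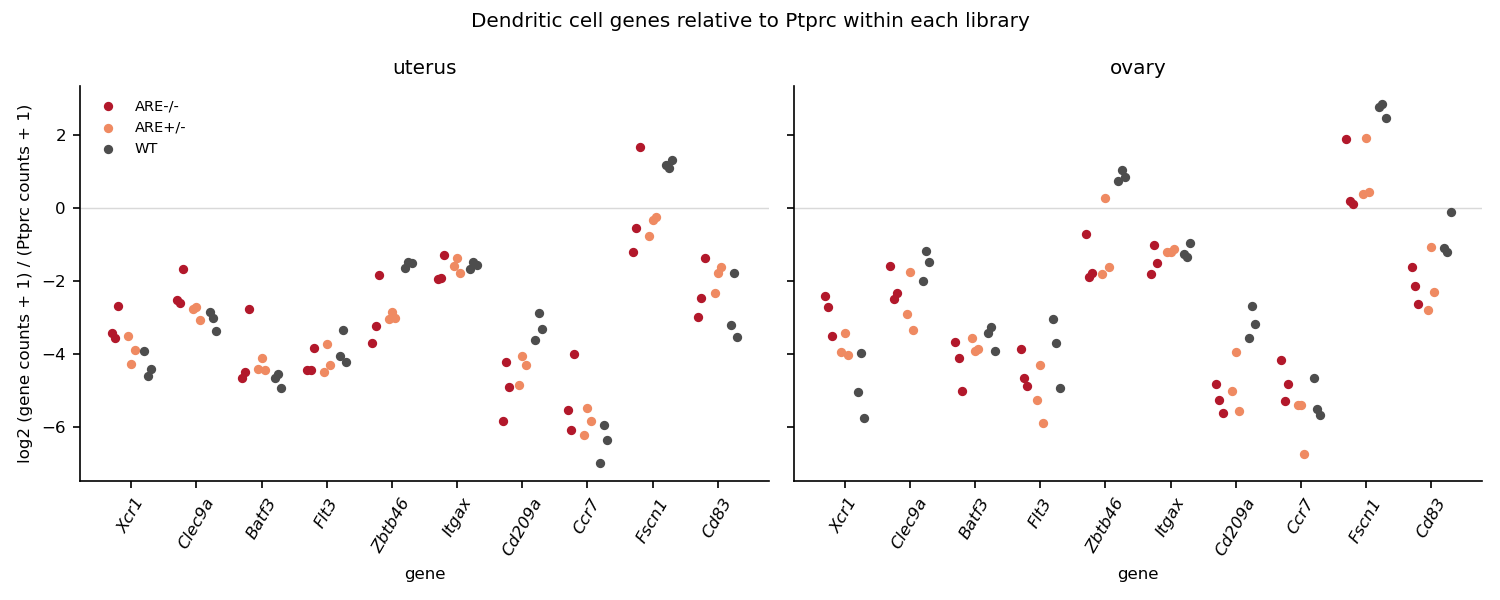
Log2 ratio of counts of each gene to those of Ptprc within a library, with 1 point per library and 1 count added to each gene, in uterus and ovary. Xcr1 points of ARE-/- lie above those of WT in both tissues, while Cd209a and Zbtb46 points of ARE-/- and ARE+/- lie below those of WT.

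The Xcr1 ligand differed between tissues in WT. Xcl1 stood at 2.83, 3.80 and 1.86 CPM in ARE-/- uterus, 6.51, 3.45 and 2.51 CPM in ARE+/- uterus and 3.70, 4.41 and 2.64 CPM in WT uterus, with all groups overlapping (-0.34 ± 0.43 for ARE-/-, edgeR adjusted p = 0.713). In the ovary it stood at 0.978, 1.42 and 1.64 CPM in ARE-/-, 0.705, 0.256 and 0.923 CPM in ARE+/- and 0, 0.102 and 0.201 CPM in WT, that is 0, 4 and 8 counts. All mutant ovaries exceeded the WT ovaries, and Xcl1 rose in ARE-/- ovary (3.69 ± 0.83, edgeR adjusted p = 0.0222) and was not called in ARE+/- ovary (2.59 ± 0.83, edgeR adjusted p = 0.162). WT ovary was below WT uterus (-5.24 ± 0.74 on the log2 scale, edgeR adjusted p = 9.97e-05). The ARE-/- effect was larger in ovary by 4.03 ± 0.91, which was not called (edgeR adjusted p = 0.0849).

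Flt3l, the FLT3 ligand, rose in both tissues of homozygotes. It had 31.9, 24.6 and 22.4 CPM in ARE-/- uterus, 17.7, 20.2 and 18.1 CPM in ARE+/- uterus and 6.91, 11.5 and 8.14 CPM in WT uterus, and in the ovary 19.9, 31.2 and 20.0 CPM in ARE-/-, 15.7, 11.6 and 12.4 CPM in ARE+/- and 6.95, 12.3 and 10.3 CPM in WT. The increase in ARE-/- was 1.57 ± 0.24 in uterus (edgeR adjusted p = 0.00831) and 1.27 ± 0.25 in ovary (edgeR adjusted p = 0.0125). Its receptor gene Flt3 was called in neither tissue.

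Of the CCR7 ligands, Ccl19 rose in ARE-/- ovary (3.37 ± 0.56, edgeR adjusted p = 0.00658), where it had 3.23, 5.77 and 1.34 CPM against 0.511, 0.204 and 0.276 CPM in WT. In the uterus it had 5.24, 0.968 and 0.718 CPM in ARE-/- and 0.161, 0.213 and 0 CPM in WT, and the value of 4.17 ± 1.498 was not called (edgeR adjusted p = 0.164). Ccl21a, made by lymphatic endothelium and stroma, was at 231.9, 127.7 and 172.0 CPM in ARE-/- uterus and 120.2, 156.4 and 121.4 CPM in WT uterus, and neither tissue gave a call (0.42 ± 0.24 and 0.51 ± 0.17, edgeR adjusted p = 0.378 and 0.0924). Near-identical copies of Ccl21a and of Ccl19 exist in the mouse genome and reads that map to several places were counted for each, so these values are uncertain. Of 8 ligands and partners tested, 3 rose in ARE-/- uterus (Flt3l, Itgb2, Csf2rb) and 5 in ARE-/- ovary (Flt3l, Xcl1, Ccl19, Itgb2, Csf1). The shares of all genes called upward were 3.36% and 6.31%. Csf2 did not pass the filter. Itgb2, the partner chain of CD11c, rose by 1.58 ± 0.32 in uterus and 2.12 ± 0.45 in ovary (edgeR adjusted p = 0.0262 and 0.0277).

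**Figure D5:**
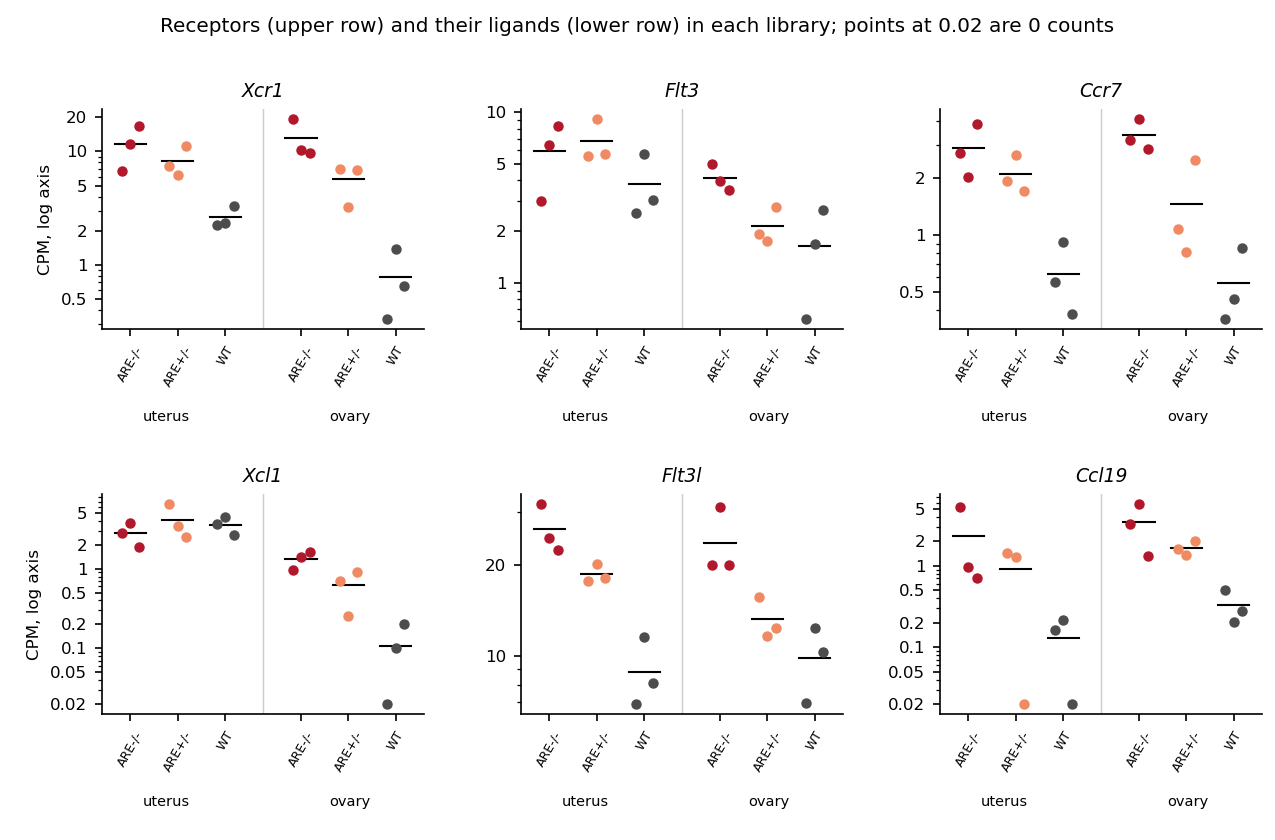
CPM on a log axis for 3 receptors (upper row) and a ligand of each (lower row), with 1 point per library and a line at the group mean; 0 counts are drawn at 0.02. Xcl1 is at 1.86 to 3.80 CPM in ARE-/- uterus and 2.64 to 4.41 CPM in WT uterus, and at 0.978 to 1.64 CPM in ARE-/- ovary and 0 to 0.201 CPM in WT ovary, while Flt3l of ARE-/- lies above WT in both tissues.

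The wider type 1 dendritic cell list, 14 genes without the members, had 1 rise in ARE-/- uterus (median log2 fold change 0.42) and 8 in ARE-/- ovary (median 0.88), with none falling in either. Over all genes 3.36% rose in ARE-/- uterus, so the single uterus rise is not read as a result for the list. The share in ARE-/- ovary was 6.31%. Irf8, the transcription factor on which these cells depend, rose in both, with 60.3, 85.5 and 91.5 CPM in ARE-/- uterus against 38.9, 37.7 and 30.6 CPM in WT uterus (1.15 ± 0.20, edgeR adjusted p = 0.0134), and 92.9, 85.8 and 55.8 CPM in ARE-/- ovary against 16.2, 20.8 and 21.2 CPM in WT ovary (2.01 ± 0.20, edgeR adjusted p = 0.000489). It also rose in ARE+/- ovary (1.29 ± 0.19, edgeR adjusted p = 0.0144). IRF8 is also made by macrophages and B cells and is itself induced by interferon gamma. Wdfy4, needed for cross-presentation, rose in ARE-/- ovary by 2.21 ± 0.26 (edgeR adjusted p = 0.00159), as did Nfil3, a transcription factor of the same lineage, by 0.61 ± 0.12 (edgeR adjusted p = 0.0106). In uterus Nfil3 had 23.8 to 25.0 CPM in ARE-/-, 15.9 to 21.1 CPM in ARE+/- and 28.9 to 35.6 CPM in WT. Both mutant groups lay below WT there, and neither was called.

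Of the type 2 list, which leaves out Cd209a, 4 of 14 rose in ARE-/- uterus (median 0.68) and 6 of 12 tested in ARE-/- ovary (median 1.02), and none fell. All-gene shares called upward were 3.36% in ARE-/- uterus and 6.31% in ARE-/- ovary. The C-type lectin genes Clec10a (1.61 ± 0.24 in uterus, 2.01 ± 0.26 in ovary) and Clec4a2 (1.84 ± 0.25 and 1.96 ± 0.31) rose in both, both of them also found on macrophages. Ltb, lymphotoxin beta, rose by 2.25 ± 0.30 and 2.85 ± 0.42, and T and B cells make it too. The part of macrophages and lymphocytes in these values was not tested.

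Among 16 genes of mature migratory dendritic cells 4 rose in ARE-/- uterus (median 0.91) and 5 in ARE-/- ovary (median 0.53), and none fell. The shares of all genes called upward were 3.36% and 6.31%. The costimulatory gene Cd86 rose by 1.88 ± 0.26 in uterus and 2.08 ± 0.28 in ovary, the chemokine Ccl22 by 2.17 ± 0.47 and 2.23 ± 0.31, and Apol7c, a pore-forming lipoprotein of dendritic cells, by 3.17 ± 0.53 and 3.52 ± 0.59. In ARE+/- ovary Ccl22 (1.496 ± 0.307) and Apol7c (2.8 ± 0.59) rose as well. Ccl17, Il12b, Socs2 and Fscn1, which accompany these genes in mature dendritic cells, were not called in either tissue of ARE-/- mice.

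Of 12 plasmacytoid dendritic cell genes 2 rose in ARE-/- uterus (median 1.18), and in ARE-/- ovary 2 rose and 2 fell (median 0.40). Over all genes 3.36% rose in ARE-/- uterus, and 6.31% rose and 4.15% fell in ARE-/- ovary. Irf7 (1.94 ± 0.44 in uterus and 1.56 ± 0.22 in ovary) and Pltp, a phospholipid transfer protein (1.19 ± 0.27 and 0.77 ± 0.18), were the genes that rose in both. Irf7 is induced by interferon in most cells. Siglech, the defining surface lectin of the type, had 1.28 to 1.62 CPM in ARE-/- uterus against 0.357 to 0.874 CPM in WT uterus, and 0.787 to 1.05 CPM in ARE-/- ovary against 0.560 to 1.25 CPM in WT ovary, and was called in neither (edgeR adjusted p = 0.45 and 0.955). Tcf4, a transcription factor of many cells, fell by 0.59 in ARE-/- ovary, and Cd209f fell by 2.75 (edgeR adjusted p = 0.00887 and 0.0219). None of the 4 Langerhans cell genes tested was called in ARE-/- uterus or ovary, and Cd207, which defines that type, had 8 counts over the 3 ARE-/- uteri, 4 over the ARE+/- uteri and 0 over the WT uteri and the 9 ovaries.

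The genes whose pattern lay nearest to Xcr1 were found by the root-mean-square difference of log2 CPM, each taken from its tissue's WT mean, over the 18 libraries and 19621 genes. Ccl5, a chemokine of T and natural killer cells, was nearest at 0.549, followed by Pld4 (0.577), an endolysosomal nuclease, Nlrc5 (0.626), the transactivator of MHC class I genes, and the lectins Clec4b1 (0.636) and Clec4a1 (0.643). A gene without any change would stand at 2.37. Ccl5 differed by 2.52 and 4.37 in ARE-/- uterus and ovary. Among the members, Ccr7 ranked 232nd (1.11), Itgax 363rd (1.26), Batf3 415th (1.31) and Clec9a 555th (1.44). Zbtb46 ranked 14349th (2.54), behind the position of an unchanging gene.

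In the authors' deposited table of a likelihood-ratio test over the 3 genotypes, Xcr1 (1.79e-12), Clec9a (2.88e-07) and Ccr7 (5.22e-05) passed their adjusted p threshold of 1e-04 in the ovary. There 719 of the 24347 genes with an adjusted p passed. In the authors' deposited table for the uterus, Batf3 (2.55e-07) and Xcr1 (8.12e-05) passed, and Clec9a (0.000102) lay just outside. Of the 26674 uterus genes with an adjusted p, 514 passed. All 5 passing entries were in the authors' deposited cluster 1 of their tissue. The share of all passing genes in that cluster was not counted, so this is not read as a result.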

How the data were processed

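Total RNA of 18 mouse libraries was sequenced with paired ends on an Illumina instrument, per the labels' protocols. The deposited tables hold raw gene counts, made by the authors with featureCounts 2.0.4 and GENCODE M32, per the file headers, which show that mates were counted singly, that reads overlapping several genes or mapping to several places were counted for each, and that no strand option was set. STAR, DESeq2 and mm10 are named in the submitters' processing notes, while M32 annotates a later build, so gene coordinates are given as the annotation states them. The authors also deposited adjusted p-values of a likelihood-ratio test with a cluster number per gene. The deposited log2 values and the base mean, a signal per gene that the authors' column name gives as an average, entered no result.

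Of 57010 gene IDs, 52029 (91.3%) had a symbol. Tests used edgeR 4.0.16 under R 4.3.3 (filterByExpr, TMM, robust quasi-likelihood F-test, Benjamini-Hochberg over all genes tested, threshold 0.05), with 9 libraries of a tissue per fit and all 18 for comparisons between tissues. SE denotes the log2 fold change over the root of F. Replicates are taken as separate mice from the series' design text; within a group, counts differed by at least 16.41 times the sampling variance (chi-square over its degrees of freedom). Replicate numbers were not stated to mark shared animals, and same-numbered libraries did not deviate together in every pair. The edgeR test of ARE-/- against WT uterus was tried on simulated counts, and the other steps were not. DESeq2 1.42.0, other scalings, no filter, a replicate block, fits of 2 genotypes and leaving out each library were tried as alternatives. The SEs and intervals include the spread between libraries of a group.

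The members and gene lists were chosen with earlier results of these data known. Genes named beyond the members are Xcl1, Flt3l, Ccl19, Ccl21a, Irf8 and Ptprc, the 3 called genes of smallest p in each dendritic cell list per tissue, the 5 genes nearest to Xcr1 in pattern, and other cells' markers where they touch a result; further genes were named after their values were seen.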

Additional observations from a re-analysis of the deposited data

How the results depend on the processing

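Counts of members called depended on the setting as follows. With a replicate block 4 members were called in ARE+/- uterus, 5 in ARE-/- ovary, 0 in ARE+/- ovary and 4 between WT ovary and WT uterus, against 1, 3, 1 and 2 without it, while the calls over all genes were 302, 1544, 59 and 6214, against 276, 2558, 417 and 6717. Under the block Xcr1 in ARE+/- ovary was not called (edgeR adjusted p = 0.375) and Cd83 in ARE-/- ovary was (1.196, edgeR adjusted p = 0.0249). The numbers were not taken as pairs, since correlations of deviations between same-numbered libraries were -0.16 to 0.014 in the ovary and -0.035 to 0.184 between mutant and WT uteri. Between ARE-/- and ARE+/- uteri all 3 were over 0.1 (0.101 to 0.343), and there the block called 0 members, as without it. DESeq2 called 6 members in ARE+/- uterus, 6 in ARE-/- ovary, 3 in ARE+/- ovary and 4 between WT tissues, and 1298, 3900, 1339 and 7822 genes in all. Fits of only 2 genotypes called 0 members in ARE-/- uterus and 4 in ARE+/- uterus, and no filter on low counts gave 2 in ARE+/- uterus and 0 in ARE+/- ovary. Calls over all genes in these fits were 374, 922, 415 and 524, against 911, 276, 276 and 417 in the main fits. Leaving out 1 library gave 0 to 5 members in ARE-/- uterus, 0 to 4 in ARE+/- uterus, 2 to 5 in ARE-/- ovary (5 without ARE+/- replicate 2), 0 to 2 in ARE+/- ovary, 1 to 4 between WT tissues (1 without ovary WT replicate 1, 4 without uterus ARE-/- replicate 1) and 0 to 1 for the tissue difference of the ARE+/- effect. Calls over all genes moved as well. In the same order they were 192 to 1322, 0 to 733, 785 to 3262, 75 to 727, 4838 to 8552 and 0 to 81. The causes were not tested. Every alternative kept Xcr1 and Clec9a called in ARE-/- ovary, with Xcr1 at 3.66 to 4.71 and Clec9a at 1.31 to 1.74.

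Signs that turned belonged to values not called. Under the replicate block these were Batf3 between ARE-/- and ARE+/- ovary (0.47), Cd209a in ARE+/- ovary (-0.17), Fscn1 in ARE-/- ovary (-0.0848) and Zbtb46 in ARE+/- ovary (0.0335), and under upper quartile scaling Cd209a in ARE-/- ovary (-0.0132). With 1 library left out, Cd209a ranged from -0.083 to 0.40 in ARE+/- ovary, -0.26 to 0.31 in ARE-/- ovary and -0.16 to 0.35 in ARE+/- uterus, Fscn1 from -0.14 to 0.13 in ARE+/- ovary and -0.0579 to 0.258 in ARE-/- ovary, Zbtb46 from -0.208 to 0.0218 in ARE+/- ovary, Flt3 from -0.0391 to 0.884 in ARE+/- ovary and -0.52 to 0.12 between ARE-/- and ARE+/- uterus. Between WT tissues Ccr7 ranged from -0.74 to 0.10, Clec9a from -0.17 to 0.27 and Fscn1 from -0.0405 to 0.235. The log2 ratio differences ranged from -0.0565 to 0.439 (Cd209a to Zbtb46, ARE+/- ovary), -0.86 to 0.17 (the same, ARE-/- uterus), -0.15 to 0.36 (Fscn1 to Zbtb46, ARE-/- uterus), -0.0831 to 0.111 (Itgax to Ptprc, ARE+/- ovary) and -0.119 to 0.0824 (the same, ARE+/- uterus). Low counts limit Xcr1 in WT ovary and Xcl1, Ccr7 and Ccl19 in WT.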
